A study of Homo sapiens with 3 samples.

Results

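The cytoplasmic ribosomal protein genes encode the proteins that, with ribosomal RNA, build the small and the large subunit of the ribosome. In the deposited table they were taken as the rows whose symbol is RPSA or has the form RPL or RPS with a number, or RPLP0, RPLP1 or RPLP2, which leaves out the RPS6K kinases and readthrough symbols. The rule found 85 of 17576 genes, 32 with small-subunit symbols and 53 with large-subunit symbols, and used no measured value. RNA was sequenced in LX-2, an immortalised line derived from human hepatic stellate cells, the matrix-producing cells of the fibrotic liver. Of 3 cultures sampled after 48 h, the first had received the cytokine TGF-b1 together with 10 μM DP, named here only by these letters. The second had received TGF-b1 alone, and the third the solvent DMSO. The TGF-b1 dose, and whether the first 2 cultures also received DMSO, were not given in the sources used here. Each group was 1 library, so no difference below has a replicate check, no test could be made, and every comparison is between libraries. RNA came from whole cultures, in which fewer cells of a kind and less RNA per cell cannot be told apart.

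Ribosomal protein mRNAs are among the most abundant messages of a growing cell, and their products are needed in equal numbers, since each ribosome holds 1 copy of nearly every protein. Most of these mRNAs begin with a cytosine and an unbroken run of pyrimidines, the 5′ terminal oligopyrimidine (TOP) tract, through which mTORC1 and the protein LARP1 control their translation and stability. TGF-beta signalling is a main driver of collagen production in stellate cells, and ribosome supply sets how much protein such a cell can make.

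Start regions came from RefSeq's promoter table (GRCh38.p14), which held 68 of the 85 members. A tract was counted where the annotated start was a C followed by at least 4 further pyrimidines, read on the gene's own strand. Such a start stood in 43 of the 67 members with both an entry and enough RNA to be compared (64.2%), against 535 of 9401 genes measured at that level with an entry (5.69%). The tract was 5 to 19 bases long, with a median of 8. The 30 bases around the start are printed below for members that lay at the ends of the comparisons and for main genes beside their paralogue copies, because some copies differ from them at this position. The capitals mark the tract, and position 16 of each window is the annotated start.
RPL39: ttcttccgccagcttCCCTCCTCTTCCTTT (chrX:119791616-119791645, minus strand)
RPLP2: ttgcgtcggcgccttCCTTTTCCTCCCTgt (chr11:809952-809981, plus strand)
RPS13: ttccactctcgctctCCTTTCgttgcctga (chr11:17077653-17077682, minus strand)
RPS24: cggcgaatcgtggttCTCTTTTCCTCCTTg (chr10:78033848-78033877, plus strand)
RPSA: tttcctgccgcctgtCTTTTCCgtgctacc (chr3:39406705-39406734, plus strand)
RPS9: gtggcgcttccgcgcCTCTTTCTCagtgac (chr19:54200843-54200872, plus strand)
RPL13A: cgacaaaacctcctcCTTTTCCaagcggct (chr19:49487593-49487622, plus strand)
RPL3: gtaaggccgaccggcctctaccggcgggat (chr22:39319609-39319638, minus strand)
RPL4: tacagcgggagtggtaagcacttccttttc (chr15:66504841-66504870, minus strand)
RPL7L1: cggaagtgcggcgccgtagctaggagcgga (chr6:42879601-42879630, plus strand)
RPL22: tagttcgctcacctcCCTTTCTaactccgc (chr1:6199581-6199610, minus strand)
RPL22L1: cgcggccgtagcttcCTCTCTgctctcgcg (chr3:170870181-170870210, minus strand)
RPL36A: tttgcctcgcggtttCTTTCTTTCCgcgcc (chrX:101390996-101391025, plus strand)
RPL36AL: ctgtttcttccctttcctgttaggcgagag (chr14:49620612-49620641, minus strand)
RPL26: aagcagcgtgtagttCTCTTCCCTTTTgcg (chr17:8383179-8383208, minus strand)
RPL26L1: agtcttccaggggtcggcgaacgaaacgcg (chr5:172958714-172958743, plus strand)
RPL39, with the largest difference of all members between TGF-b1 and DMSO in the values as deposited, also had the longest tract, of 19 bases, which runs past the window. RPS9 and RPL13A carried a tract too and were among the members that differed least. RPL3 had a run of only 4 pyrimidines, and RPL4 and RPL7L1 started on a purine. Of the 5 paralogue copies compared that have an entry, RPL22L1 alone was counted with a tract. RPL36AL and RPL26L1 were counted without the one that RPL36A and RPL26 carry. In RPL36AL an unbroken pyrimidine run crosses the annotated start, with only 3 of its bases at or after it.

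The values are FPKM as deposited, which counts fragments per kilobase of transcript relative to a library's mapped fragments, and a difference is log2((FPKM + 1)/(FPKM + 1)). Of all 17576 genes, the 11327 that averaged 1 FPKM or more across the libraries were compared. Genes were called higher or lower once this difference reached 1 in either direction, which is 2-fold. The depth was not given in the sources used here, and precision is therefore unknown. The stellate markers were at 1 FPKM or more for 8 of 11 in each library, with COL1A1 at 349 FPKM with TGF-b1+DP, 604 with TGF-b1 and 295 with DMSO, although DES and LRAT were at most 0.03 and 0.06 FPKM in any library. The stellate list summed to 4952 FPKM with TGF-b1+DP, 4793 with TGF-b1 and 2621 with DMSO, most of it VIM and TIMP1. VIM and TIMP1 were highest with TGF-b1+DP, and other markers ran otherwise. ACTA2 had 6.79 FPKM with TGF-b1+DP, 78.11 with TGF-b1 and 21.08 with DMSO. TAGLN had 59.81, 220.06 and 53.93 FPKM in the same order, and COL3A1 10.81, 33.12 and 34.89. Of 4 hepatocyte markers in the table SERPINA1 alone passed 1 FPKM, at 88.45 FPKM with TGF-b1+DP, 1.93 with TGF-b1 and 3.99 with DMSO, with ALB at most 0.02 FPKM. The 4 leukocyte markers summed to 56.65 FPKM with TGF-b1+DP, 25.19 with TGF-b1 and 54.64 with DMSO, nearly all of it CD68, with PTPRC between 0.26 and 0.58 FPKM. Endothelial and cholangiocyte markers summed to at most 1.84 and 7.43 FPKM. The part of any of these in the results was not tested.

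Ribosomal protein genes were abundant in all 3 libraries and took a larger share of the TGF-b1 library. They held 11.4% of the summed FPKM with TGF-b1+DP, 16.0% with TGF-b1 and 11.2% with DMSO. This share does not depend on how the libraries are scaled to each other. It does carry the difference of short transcripts between libraries that is described below. Among the 100 most abundant genes, 44 with TGF-b1+DP, 50 with TGF-b1 and 46 with DMSO were members. Of the 85 members, 10 reached 1000 FPKM with TGF-b1+DP, 44 with TGF-b1 and 12 with DMSO. Leaving out the 8 paralogue copies, the median level of the 77 main genes was 613 FPKM with TGF-b1+DP, 1126 with TGF-b1 and 645 with DMSO.

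The order of levels within the family was much the same in each library. Across the 83 members compared, which share each library's depth and the authors' transcript lengths, Spearman's rho between levels was 0.96 for TGF-b1+DP and TGF-b1, 0.98 for TGF-b1+DP and DMSO, and 0.95 for TGF-b1 and DMSO. RPS2 (Entrez gene 6187), which sits at the entry of the mRNA channel, was the highest by mean, at 1924 FPKM with TGF-b1+DP, 3117 with TGF-b1 and 2260 with DMSO. Next came RPS18, a protein of the small-subunit head, at 1989 FPKM with TGF-b1+DP, 2925 with TGF-b1 and 1765 with DMSO. RPLP0, the base of the stalk, had 1852 FPKM with TGF-b1+DP, 2752 with TGF-b1 and 1883 with DMSO. RPL9 had 1371 FPKM with TGF-b1+DP, 2435 with TGF-b1 and 1303 with DMSO. These 4 genes were highest with TGF-b1, and the other 2 libraries lay nearer to each other than to it. At the other end of the main genes, RPL14 had 56.9 FPKM with TGF-b1+DP, 89.8 with TGF-b1 and 57.2 with DMSO. Although the ribosome holds these proteins in equal numbers, the top and the bottom decile of the main genes' FPKM stood 6.97-fold apart with TGF-b1+DP, 6.28-fold with TGF-b1 and 7.12-fold with DMSO. Mean FPKM was lower for longer transcripts (rho -0.55 over 83 members for the principal GENCODE transcript, -0.31 for the longest), and 38 members have a near-identical pseudogene, so the levels of single members are uncertain.

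**Figure D1:**
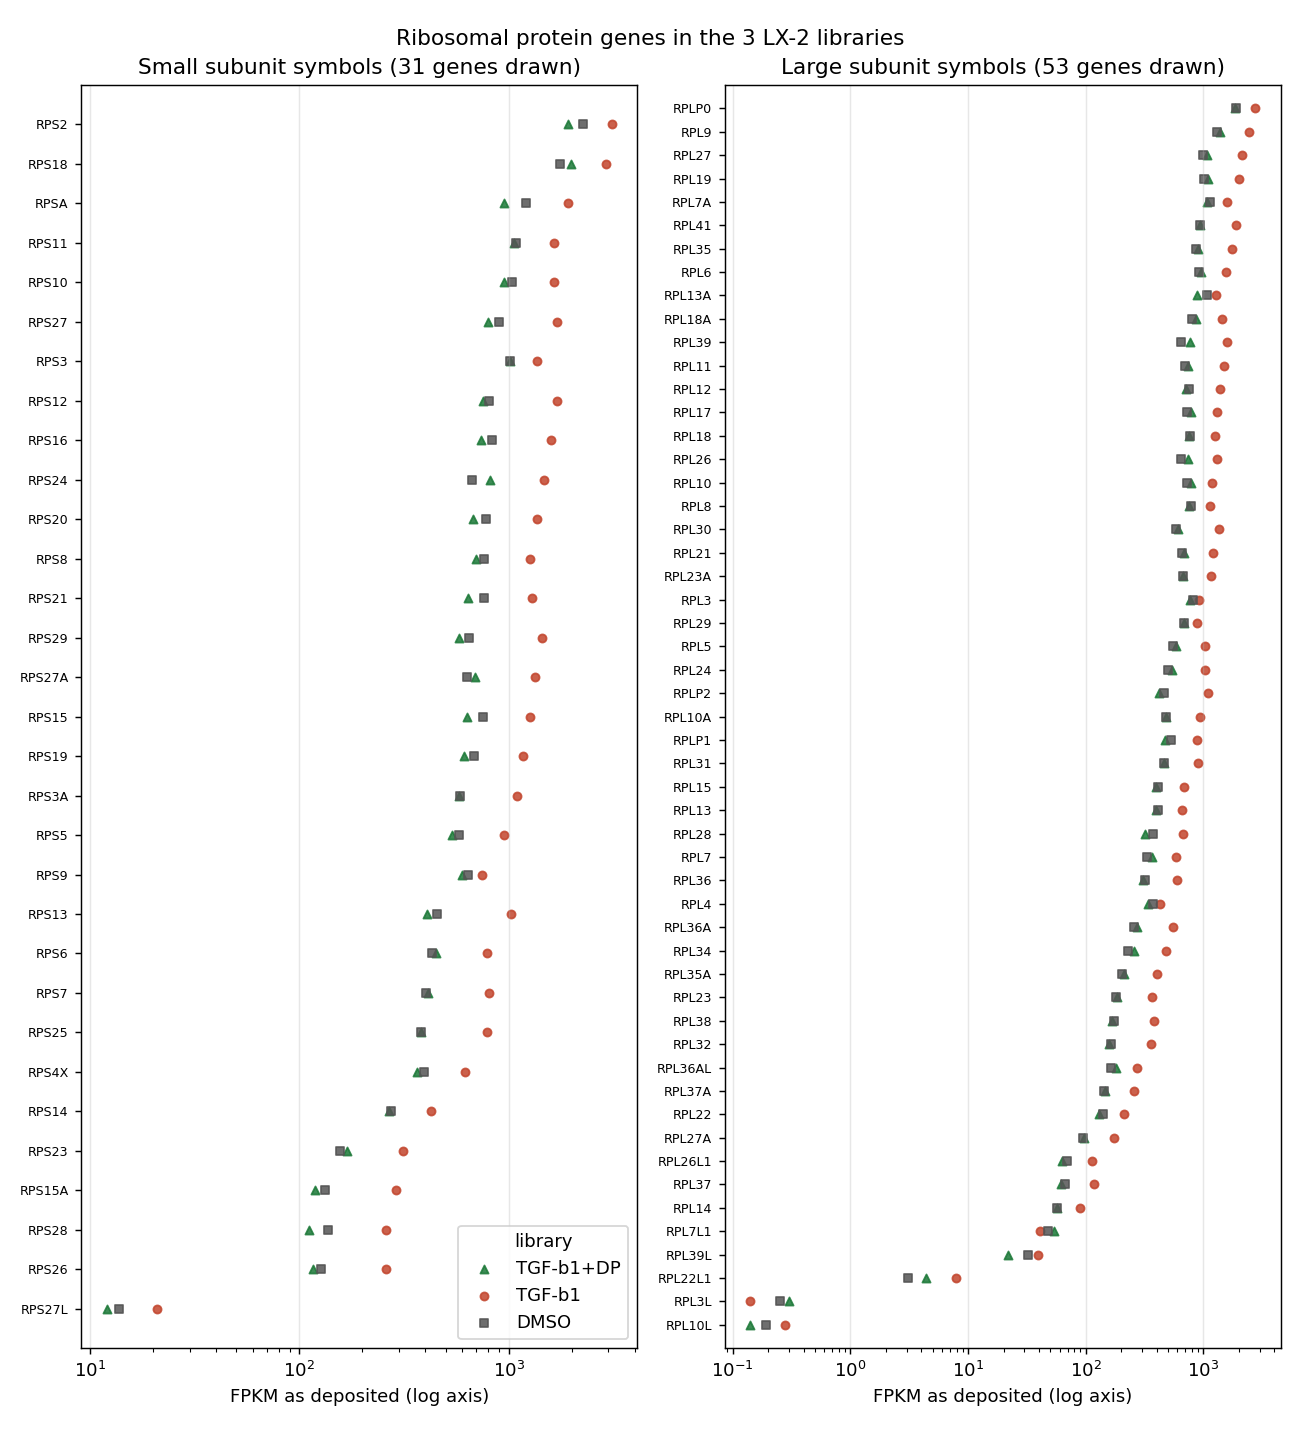
FPKM of 84 of the 85 members in the 3 libraries, on log axes, with small-subunit genes on the left and large-subunit genes on the right, each panel ordered by mean level. Each point is 1 library. The TGF-b1 point lies to the right of the other 2 in nearly every row, and the TGF-b1+DP and DMSO points largely coincide.

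Setting TGF-b1 against DMSO asks how ribosomal protein mRNAs stood under the cytokine. The family was higher with TGF-b1 almost as a body: 82 of the 83 members compared lay above 0, against 42.6% of all genes, and 23 were higher by at least 1, against 2.31% of all genes. None was lower by at least 1, against 6.73% of all genes. The median member difference was 0.86 and that of all genes -0.10, and the median stayed above 0 under all 12 other settings tried. The count of 23 depended on the setting. It was 1 when the libraries were brought to the same summed FPKM, against 0.918% of all genes, which is near the background, 46 with median-of-ratios scaling, against 5.16%, and 8 after subtracting the median of genes of like length and GC content, against 2.23%. The median under these 3 settings was 0.56, 1.04 and 0.41. At equal summed FPKM RPL13A, RPL3, RPL39L, RPL4 and RPS9 turned negative, and RPL7L1, already below 0 as deposited, was at -0.50. The members also varied little among themselves, with an SD over genes of 0.28 against 0.61 for all genes. RPL10L and RPL3L, both under 0.5 FPKM in every library, were not compared.

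RPL39 (Entrez gene 6170), a very small protein that lines the exit tunnel of the large subunit, had 1599 FPKM with TGF-b1 and 648 with DMSO, a log2 difference of 1.30. RPLP2 (Entrez gene 6181), a partner in the acidic dimer that recruits elongation factors, had 1097 FPKM with TGF-b1 and 460 with DMSO, a difference of 1.25. RPL30 followed with 1366 FPKM with TGF-b1 and 582 with DMSO (1.23). In the small subunit the largest differences were those of RPS13, with 1024 FPKM with TGF-b1 and 453 with DMSO (1.18), and RPS29, a zinc-binding protein mutated in some patients with Diamond-Blackfan anaemia, with 1442 FPKM with TGF-b1 and 645 with DMSO (1.16). After the length and GC correction the order was another, with RPL28 (1.49), RPL13 (1.33) and RPL37 (1.29) highest. RPL39 was then at 0.62 and RPLP2 at 0.94. The principal transcripts taken for RPL28, RPL13 and RPL37 were 4796, 4498 and 7686 bases long. Their corrected values rest on that choice, and whether the libraries held transcripts of such length was not tested. At the other end of the deposited values stood RPL7L1, the single member below 0 (57.2% of all genes were), at 40.8 FPKM with TGF-b1 against 47.4 with DMSO (-0.21). After the length and GC correction RPL7L1 was at 0.0099, and the members below 0 were RPL39L (-0.37), RPL7A (-0.16), RPL13A (-0.15), RPS9 (-0.089) and RPL29 (-0.064). The yeast relative of RPL7L1, Rlp7, is an assembly factor rather than a ribosomal protein. RPL3, which reaches towards the peptidyl transferase centre, had 914 FPKM with TGF-b1 and 818 with DMSO (0.16), and RPL4, which narrows the exit tunnel, had 427 FPKM with TGF-b1 and 369 with DMSO (0.21). RPS9 had 748 FPKM with TGF-b1 and 642 with DMSO (0.22), and RPL13A, known in monocytic cells as a part of the interferon-triggered GAIT complex, had 1270 FPKM with TGF-b1 and 1065 with DMSO (0.25). RPL3, RPL4, RPS9 and RPL13A are abundant genes that differed little, and all 4 are among those whose sign turns at equal summed FPKM. RPL19, at 0.999, lay just below the threshold of 1 and RPL41, at 1.003, just past it.

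Setting TGF-b1+DP against TGF-b1 alone asks how the same mRNAs stood when DP was added to the cytokine. The same TGF-b1 library enters both comparisons, so a value that is high in it by chance would appear here with opposite sign, and the 2 sets of differences are not independent. With TGF-b1+DP, 82 of 83 members lay below 0, against 50.2% of all genes, and 23 were lower by at least 1, against 4.26% of all genes. None was higher by at least 1, against 6.19% of all genes. The median was -0.86 for members and -0.0041 for all genes, and the members' median stayed below 0 under all 12 other settings. At equal summed FPKM the median was -0.51 with 1 member lower by at least 1, against 1.1% of all genes, which is near the background, and RPL3, RPL4 and RPS9 turned positive. After the length and GC correction the median was -0.29 with 6 lower, against 2.14% of all genes.

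As deposited, RPLP2 had the lowest difference, with 422 FPKM with TGF-b1+DP and 1097 with TGF-b1 (-1.37). RPS13 had 408 FPKM with TGF-b1+DP and 1024 with TGF-b1 (-1.32), and RPS29 had 579 FPKM with TGF-b1+DP and 1442 with TGF-b1 (-1.31). RPS15A followed with 119 FPKM with TGF-b1+DP and 289 with TGF-b1 (-1.28), then RPS28, which lies at the exit of the mRNA channel, with 111 FPKM with TGF-b1+DP and 260 with TGF-b1 (-1.21). All but RPLP2 of these 5 belong to the small subunit. After the length and GC correction RPLP2 was at -0.73 and RPS28 at -0.93, and the lowest were the large-subunit genes RPL28 (-1.55), RPL37 and RPL13 (-1.22). For RPL28, RPL37 and RPL13 this rests on the long principal transcripts given above. RPL7L1 was again the exception in the deposited values, the single member above 0 (49.7% of all genes were, and 13 members after the correction), with 53.8 FPKM with TGF-b1+DP against 40.8 with TGF-b1 (0.39). The members that differed least below 0 were RPL3, at 773 FPKM with TGF-b1+DP and 914 with TGF-b1 (-0.24), RPS9 at 598 FPKM with TGF-b1+DP and 748 with TGF-b1 (-0.32), RPL4 at 338 FPKM with TGF-b1+DP and 427 with TGF-b1 (-0.34), and RPL29 at 679 FPKM with TGF-b1+DP and 873 with TGF-b1 (-0.36). RPL27, at -0.986, lay just short of the threshold and RPS15, at -1.004, just past it.

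**Figure D2:**
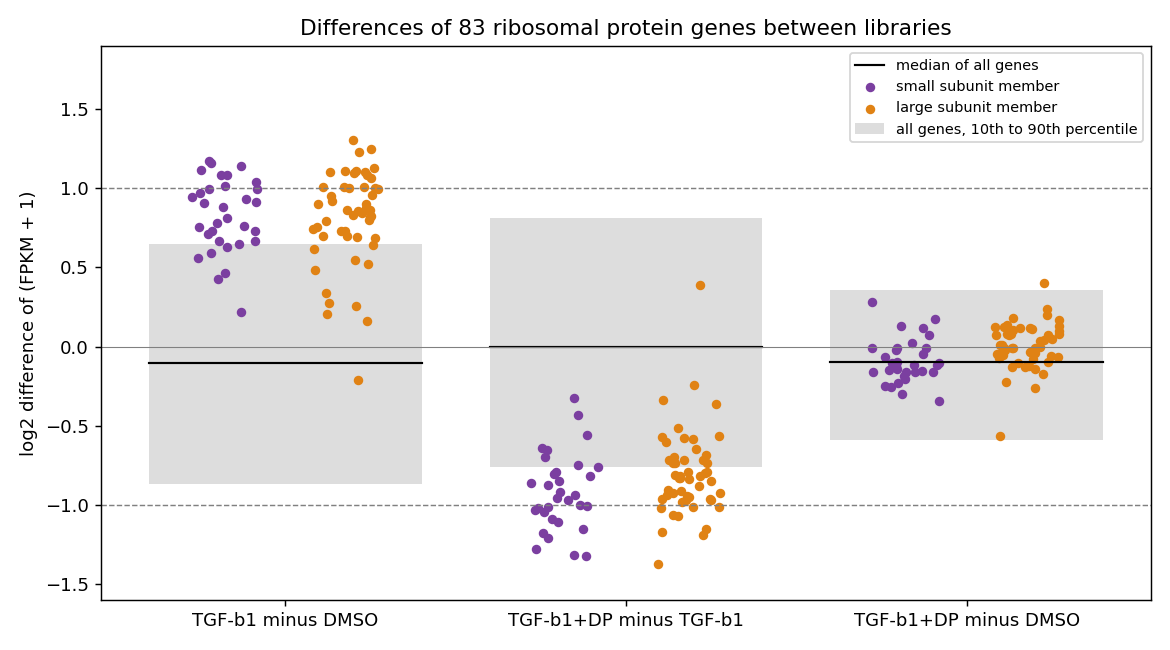
Log2 difference of each of the 83 members in the 3 comparisons, split into small-subunit and large-subunit genes, over a grey band from the 10th to the 90th percentile of all 11327 genes and a line at their median. Dashed lines mark a 2-fold difference. Members cluster near a median of 0.86 for TGF-b1 minus DMSO, near -0.86 for TGF-b1+DP minus TGF-b1 and near 0 for TGF-b1+DP minus DMSO. At equal summed FPKM, 5 members in the first and 3 in the second comparison change sign.

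Set directly against DMSO, the TGF-b1+DP library had ribosomal protein levels close to those of the solvent control. No member was higher by at least 1, against 2.45% of all genes, and none lower, against 2.88%. The median was -0.024, with 31 members above 0 (36.9% of all genes were) and 52 below (62.8% of all genes were), shares near the background, and the sign of the median turned with the scaling, from -0.024 as deposited to 0.023 at equal summed FPKM and 0.14 with median-of-ratios scaling. Within 0.25 of DMSO lay 76 of 83 members, and within 0.1 lay 38. The SD over members was 0.15, against 0.51 for all genes.

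The 2 members farthest from DMSO were paralogue copies of low abundance. RPL39L, a copy of RPL39 known for its expression in testis, had 21.7 FPKM with TGF-b1+DP, 39.5 with TGF-b1 and 32.5 with DMSO, a difference from DMSO of -0.56. RPL22L1 had 4.43 FPKM with TGF-b1+DP, 7.82 with TGF-b1 and 3.11 with DMSO (0.40). Among abundant members, RPSA, the small-subunit protein also known as a laminin receptor precursor, had 956 FPKM with TGF-b1+DP, 1925 with TGF-b1 and 1212 with DMSO (-0.34 from DMSO). RPS28 (-0.30), RPL13A (-0.26) and RPS21 (-0.25) were also on the low side, RPS21 with 641 FPKM with TGF-b1+DP, 1299 with TGF-b1 and 765 with DMSO. On the high side RPS24, mutated in some patients with Diamond-Blackfan anaemia, had 814 FPKM with TGF-b1+DP, 1480 with TGF-b1 and 670 with DMSO (0.28). RPL39 (0.23), RPL26 (0.20) and RPL7L1 (0.18) followed. RPL26 had 744 FPKM with TGF-b1+DP, 1304 with TGF-b1 and 649 with DMSO.

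Small-subunit and large-subunit genes differed slightly in this comparison. The median of the 32 small-subunit genes was -0.12 with 26 below 0, and that of the 51 large-subunit genes -0.0018 with 26 below 0. Of all genes, 62.8% were below 0. The small minus large difference of medians was -0.12 and stayed between -0.15 and -0.10 over 13 settings. Scaling shifts all genes of a library nearly alike, so the scaled settings could hardly move this gap. Nor could the smaller pseudocount or the minimum of 5 FPKM, under which the members were the same. Under median-of-ratios scaling the counts below 0 moved to 7 of 32 small-subunit and 4 of 51 large-subunit genes, against 44.1% of all genes. As sums, small-subunit FPKM was 0.768 of large-subunit FPKM with TGF-b1+DP, 0.807 with TGF-b1 and 0.824 with DMSO. The difference between TGF-b1+DP and DMSO ran against GC content in both subunits (rho -0.33 over 32 small-subunit and -0.39 over 51 large-subunit genes), and the part of GC content in the gap between subunits was not tested. For TGF-b1 minus DMSO the medians were 0.85 in the small and 0.86 in the large subunit. Higher by at least 1 were 8 of 32 and 15 of 51 genes, against 2.31% of all genes. At equal summed FPKM 0 and 1 were, against 0.918%. For TGF-b1+DP minus TGF-b1 they were -0.95 and -0.83, with 14 of 32 and 9 of 51 genes lower by at least 1, against 4.26% of all genes. These counts were 0 and 1 at equal summed FPKM, against 1.1% of all genes, and after the length and GC correction 1 and 5, against 2.14%. The small minus large difference of medians lay between -0.13 and -0.0042 over the 13 settings here, with the smallest gap once members near-identical to a pseudogene were left out.

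**Figure D3:**
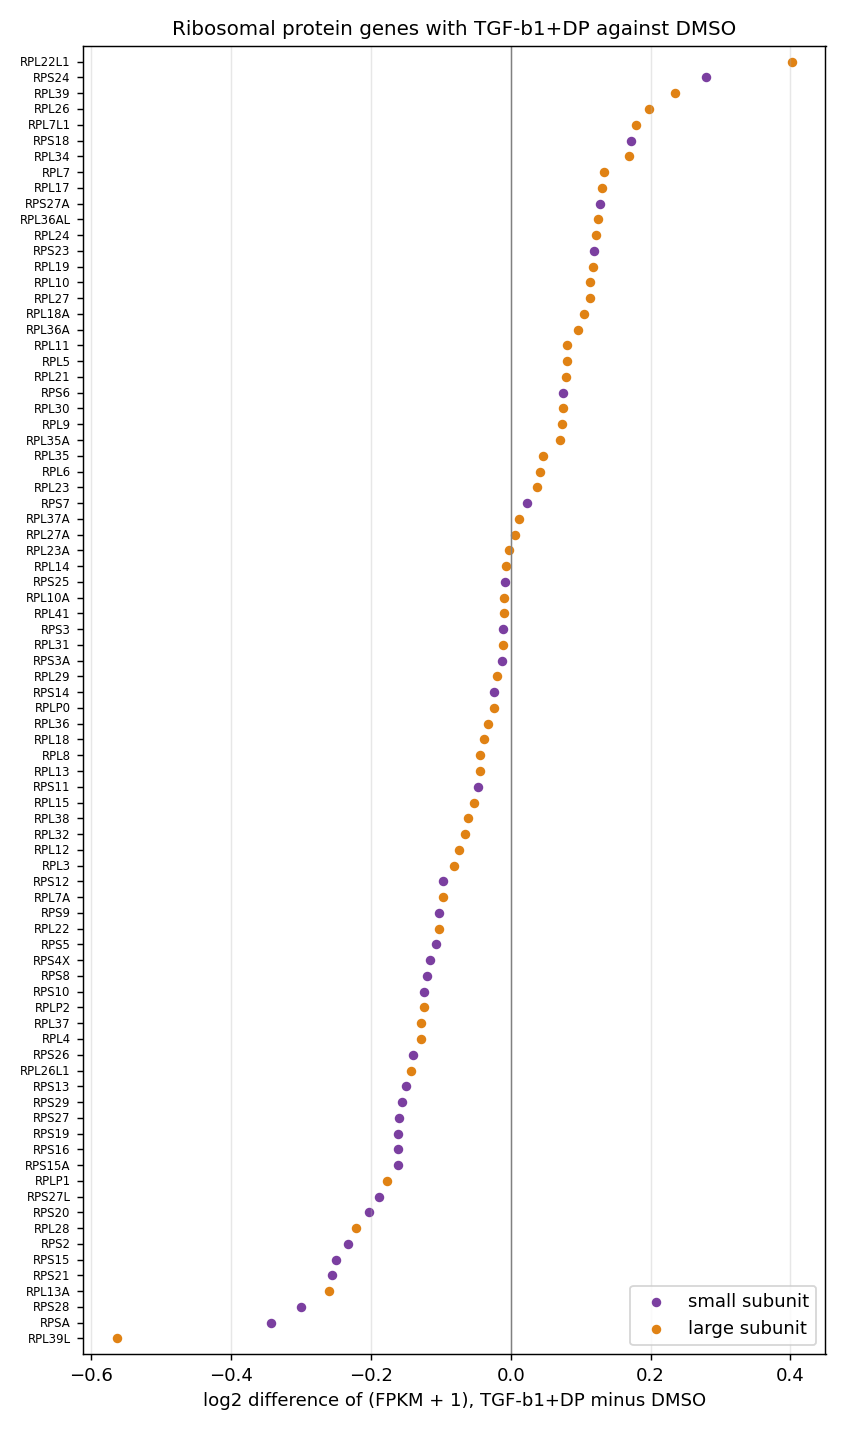
Log2 difference of 82 of the 83 members compared between TGF-b1+DP and DMSO, in order, coloured by subunit. Points run from -0.56 (RPL39L) to 0.40 (RPL22L1). Over all members 26 of 32 small-subunit genes and 26 of 51 large-subunit genes lie below 0, beside 62.8% of all genes. With median-of-ratios scaling these counts fall to 7 and 4, beside 44.1% of all genes.

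By role, the stalk, the 5S particle, the exit tunnel and the mRNA channel followed the family. In the stalk, which recruits and activates the translation factors, RPLP0 had 1852 FPKM with TGF-b1+DP, 2752 with TGF-b1 and 1883 with DMSO. RPLP1 had 468 FPKM with TGF-b1+DP, 880 with TGF-b1 and 529 with DMSO, and RPLP2 had 422 FPKM with TGF-b1+DP, 1097 with TGF-b1 and 460 with DMSO. The TGF-b1 minus DMSO differences were 0.55 for RPLP0, 0.73 for RPLP1 and 1.25 for RPLP2, so the 3 stalk genes covered much of the family's range. TGF-b1+DP minus TGF-b1 was -0.57, -0.91 and -1.37 for the same genes. RPL5 and RPL11, which bind the 5S ribosomal RNA and, when free, the p53 regulator MDM2, lay close together. RPL5 had 584 FPKM with TGF-b1+DP, 1031 with TGF-b1 and 552 with DMSO, and RPL11 had 736 FPKM with TGF-b1+DP, 1494 with TGF-b1 and 696 with DMSO. Both were 0.081 above DMSO with TGF-b1+DP.

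The 9 genes of the exit tunnel and its rim had a median of 0.95 for TGF-b1 minus DMSO, from RPL4 (0.21) to RPL39 (1.30). As deposited 3 were higher by at least 1, beside 23 of 83 members and 2.31% of all genes. This count was 1 at equal summed FPKM and 0 after the length and GC correction, against 0.918% and 2.23% of all genes. The medians of these 9 genes were -0.81 for TGF-b1+DP minus TGF-b1 and 0.046 for TGF-b1+DP minus DMSO. The 7 genes of the mRNA channel and decoding site had medians of 0.75 for TGF-b1 minus DMSO, -0.88 for TGF-b1+DP minus TGF-b1 and -0.14 for TGF-b1+DP minus DMSO. RPS3, an mRNA-entry protein that also acts in DNA repair, was the lowest of them for TGF-b1 minus DMSO (0.42), with 1013 FPKM with TGF-b1+DP, 1369 with TGF-b1 and 1021 with DMSO. RPS26, at the mRNA exit, was the highest (1.01), with 116 FPKM with TGF-b1+DP, 259 with TGF-b1 and 128 with DMSO. The 19 members mutated in Diamond-Blackfan anaemia, a failure of red cell production, had a median of 1.00 for TGF-b1 minus DMSO, from RPS10 (0.67) to RPS29 (1.16). Of them 8 were higher by at least 1, beside 23 of 83 members and 2.31% of all genes. For TGF-b1+DP minus TGF-b1 their median was -0.96 with 7 lower by at least 1, beside 23 of 83 members and 4.26% of all genes. Both counts were 0 at equal summed FPKM, against 0.918% and 1.1% of all genes. After the length and GC correction both were 1, against 2.23% and 2.14%.

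FAU and RACK1, ribosomal genes that the symbol rule misses, were also highest with TGF-b1. FAU, whose product is cleaved into a ubiquitin-like protein and the small-subunit protein eS30, had 578 FPKM with TGF-b1+DP, 1190 with TGF-b1 and 608 with DMSO. RACK1, a signalling scaffold bound to the small-subunit head, had 969 FPKM with TGF-b1+DP, 1317 with TGF-b1 and 841 with DMSO. TGF-b1 minus DMSO was 0.97 for FAU and 0.65 for RACK1, and TGF-b1+DP minus TGF-b1 was -1.04 for FAU and -0.44 for RACK1. With TGF-b1+DP, RACK1 was 0.20 above DMSO, while FAU was at -0.075.

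Paralogue copies contributed little RNA beside their main genes, apart from RPL36AL. This autosomal copy of the X-linked RPL36A had 180 FPKM with TGF-b1+DP, 274 with TGF-b1 and 165 with DMSO. RPL36A itself had 273 FPKM with TGF-b1+DP, 552 with TGF-b1 and 255 with DMSO. It made up 39.7% of the pair with TGF-b1+DP, 33.2% with TGF-b1 and 39.2% with DMSO. RPL7L1 was 12.9% of its pair with RPL7 with TGF-b1+DP, 6.54% with TGF-b1 and 12.6% with DMSO, as RPL7 was highest with TGF-b1 and RPL7L1 lowest. RPL7 had 362 FPKM with TGF-b1+DP, 583 with TGF-b1 and 330 with DMSO. RPL26L1 had 63.1 FPKM with TGF-b1+DP, 113 with TGF-b1 and 69.7 with DMSO. Its share of the pair with RPL26 was 7.82% with TGF-b1+DP, 7.96% with TGF-b1 and 9.70% with DMSO. RPL39L was 2.77% of its pair with TGF-b1+DP, 2.41% with TGF-b1 and 4.78% with DMSO. RPL22L1, whose splicing is repressed by RPL22, was 3.31% of its pair with TGF-b1+DP, 3.54% with TGF-b1 and 2.19% with DMSO. RPL22 had 129 FPKM with TGF-b1+DP, 213 with TGF-b1 and 139 with DMSO. RPS27L, a p53 target, had 12.1 FPKM with TGF-b1+DP, 20.9 with TGF-b1 and 13.9 with DMSO, beside RPS27 at 802 FPKM with TGF-b1+DP, 1708 with TGF-b1 and 896 with DMSO. It made up between 1.21% (TGF-b1) and 1.52% (DMSO) of the pair. RPL10L, a testis copy of the X-linked RPL10, and RPL3L, a copy used in striated muscle, were at most 0.28 and 0.30 FPKM. RPL10 had 784 FPKM with TGF-b1+DP, 1177 with TGF-b1 and 724 with DMSO.

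Transcripts as short as those of ribosomal proteins differed between these libraries as a class. The principal GENCODE transcripts of most members are short, and among all genes the 2258 with the shortest transcripts had median differences of 0.36 for TGF-b1 minus DMSO and -0.54 for TGF-b1+DP minus TGF-b1. The 2256 with the longest had -0.44 and 0.41. Within the family the trend was weaker. The 28 shortest members had a median of 0.96 for TGF-b1 minus DMSO, the 27 of middle length 0.86 and the 28 longest 0.76, with -0.98, -0.84 and -0.80 for TGF-b1+DP minus TGF-b1 (rho with length -0.32 and 0.32 over 83 members). When the median of genes of like length and GC content was subtracted, the members' median was 0.41 for TGF-b1 minus DMSO, with 8 of 83 higher by at least 1, against 2.23% of all genes under the same correction, and 77 above 0, against 49.9%. For TGF-b1+DP minus TGF-b1 it was -0.29, with 6 lower by at least 1, against 2.14%, and 70 below 0, against 49.9%. The difference of the family from other genes was thus smaller among genes of like length and GC content, and the parts of length and of GC content in this were not told apart.

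**Figure D4:**
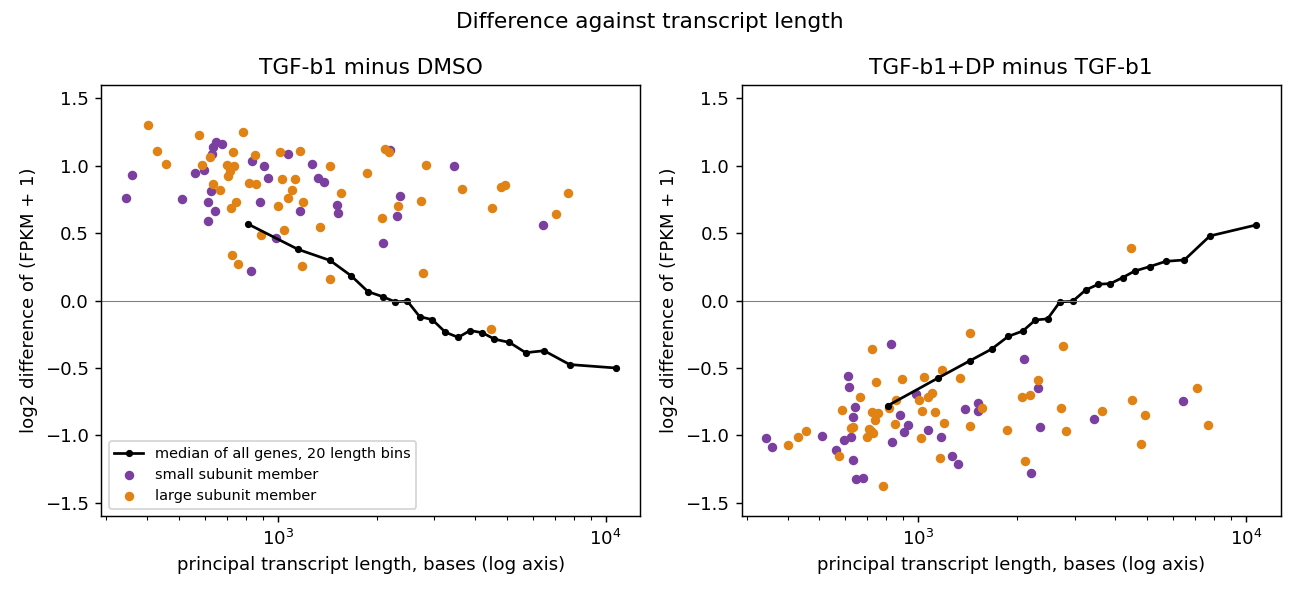
Log2 difference against principal transcript length (log axis, bases) for TGF-b1 minus DMSO on the left and TGF-b1+DP minus TGF-b1 on the right. The black line joins the medians of all genes in 20 length bins, and the coloured points are members. The line falls with length on the left and climbs on the right. Most members lie above it on the left and, less widely, below it on the right.

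Many ribosomal protein genes have processed pseudogenes or neighbours with which reads can be confused. Of the 83 members, 20 share exons with another measured gene, 38 have a near-identical pseudogene (18 for RPL21, the most), and 37 have neither. Leaving out those with a pseudogene, the median of the remaining 45 was 0.88 for TGF-b1 minus DMSO, -0.93 for TGF-b1+DP minus TGF-b1 and -0.038 for TGF-b1+DP minus DMSO. Readthrough transcripts that contain a member were also highest with TGF-b1. They were lowest with TGF-b1+DP, while RPL36A and RPL17 themselves were lowest with DMSO. RPL36A-HNRNPH2 had 21.1 FPKM with TGF-b1+DP, 51.5 with TGF-b1 and 26.0 with DMSO. RPL17-C18orf32 had 16.4 FPKM with TGF-b1+DP, 44.9 with TGF-b1 and 21.0 with DMSO, and RPS10-NUDT3 had 9.97 FPKM with TGF-b1+DP, 17.8 with TGF-b1 and 11.7 with DMSO. These share exons with RPL36A, RPL17 and RPS10, so the split of reads between them is uncertain.

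A tract at the annotated start did not separate members that differed more from those that differed less. Some starts counted as without a tract have a pyrimidine run a few bases further on, as in RPL10A and RPS28, or across the start, as in RPL36AL. A start annotated slightly off puts a gene in the wrong group, so this split cannot tell whether TOP mRNAs differ from others. The 42 main genes with a tract had medians of 0.88 for TGF-b1 minus DMSO and -0.92 for TGF-b1+DP minus TGF-b1, and the 20 without had 0.91 and -0.92. Outside the family, 492 genes with such a start had medians of 0.0026 and -0.088, and 8842 without had -0.11 and 0.0071. The windows printed above show the same in single genes, with RPL39 at 1.30 and RPS9 at 0.22 both starting on a tract. Other promoter motifs were searched in the 250 bases before and 50 after the start, on both strands, with overlapping matches allowed. An ETS site (CCGGAAG) was found in 34.3% of 67 members and 20.8% of 9401 genes, and a YY1 site (AAGATGGCG) in 8.96% (6 members) and 4.31%. The SP1 box (GGGCGG) was rarer in members, at 53.7% against 72.2% of all genes. TATAAA, on the gene's strand from -35 to -19, was in 4.48% of members (3 members) and 1.44% of all genes. A match describes letters in the window, not binding.

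As deposited, the lists of the translation machinery described from here on had medians nearer 0 than the ribosomal proteins in the comparisons that involve the TGF-b1 library. Because scaling to equal summed FPKM moved the all-gene median from -0.10 to -0.37 for TGF-b1 minus DMSO and from -0.0041 to 0.29 for TGF-b1+DP minus TGF-b1, list medians are best read against those medians. For the counts of the lists, 2.31% of all genes were higher and 6.73% lower by at least 1 in TGF-b1 minus DMSO, 6.19% higher and 4.26% lower in TGF-b1+DP minus TGF-b1, and 2.45% higher and 2.88% lower in TGF-b1+DP minus DMSO. With lists of this size, 1 to 3 genes past the threshold are few to set beside those shares. The 19 other genes with known TOP mRNAs, FAU and RACK1 among them, had a median of 0.56 for TGF-b1 minus DMSO, with 1 higher by at least 1, and -0.60 for TGF-b1+DP minus TGF-b1, with 1 lower. EEF1B2, an exchange factor of elongation factor 1, was their highest for TGF-b1 minus DMSO (1.04), with 413 FPKM with TGF-b1+DP, 774 with TGF-b1 and 377 with DMSO. EEF2, the elongation factor that moves the ribosome along the mRNA and itself a classic TOP mRNA, went the other way, with 592 FPKM with TGF-b1+DP, 409 with TGF-b1 and 617 with DMSO (-0.59 for TGF-b1 minus DMSO and 0.53 for TGF-b1+DP minus TGF-b1). HNRNPA1 was the lowest of these genes for TGF-b1+DP minus DMSO (-0.25).

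The 28 initiation factors had medians of 0.36 for TGF-b1 minus DMSO, -0.24 for TGF-b1+DP minus TGF-b1 and 0.12 for TGF-b1+DP minus DMSO, the second of which turned to 0.11 at equal summed FPKM and to 0.060 after the length and GC correction. In TGF-b1 minus DMSO 2 were higher and 1 lower by at least 1, and in TGF-b1+DP minus TGF-b1 2 were higher and none lower, 2 of 28 being a share near the 6.19% of all genes in the second. EIF3J, a loosely bound subunit of initiation factor 3, had 38.1 FPKM with TGF-b1+DP, 59.5 with TGF-b1 and 26.2 with DMSO (1.16 for TGF-b1 minus DMSO). EIF1, which guards start-codon choice, had 337 FPKM with TGF-b1+DP, 602 with TGF-b1 and 335 with DMSO. EIF3C had 112 FPKM with TGF-b1+DP, 14.7 with TGF-b1 and 102 with DMSO, but shares reads with a near-identical neighbour, EIF3CL, so its value is uncertain. EIF4A2 was the lowest factor for TGF-b1+DP minus DMSO (-0.29). The 11 elongation and release factors had medians of 0.33 for TGF-b1 minus DMSO, -0.28 for TGF-b1+DP minus TGF-b1 and 0.13 for TGF-b1+DP minus DMSO, the second of which turned to 0.065 at equal summed FPKM. In TGF-b1 minus DMSO 2 were higher by at least 1 and none lower, and in each of the other comparisons 1 was lower and none higher. EEF1E1, a scaffold of the aminoacyl-tRNA synthetase complex, had 45.4 FPKM with TGF-b1+DP, 66.6 with TGF-b1 and 30.6 with DMSO. EEF1A2, the elongation factor of muscle and neurons, had 1.13 FPKM with TGF-b1+DP, 3.79 with TGF-b1 and 6.40 with DMSO.

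By their medians, ribosome assembly factors showed another order of libraries than the proteins they assemble. Their 43 genes had a median of 0.29 for TGF-b1 minus DMSO (-0.0028 at equal summed FPKM), with 1 higher by at least 1. Of these genes 28 were above 0, against 42.6% of all genes, and 15 below. Relative to TGF-b1, the median with TGF-b1+DP was 0.10, with 27 of 43 above 0 and 3 higher by at least 1, against 6.19% of all genes. It was 0.41 at equal summed FPKM, with 36 above 0 and 7 higher, against 12.7% of all genes. Relative to DMSO the median was 0.35, with 39 of 43 above 0 against 36.9% of all genes. This median was between 0.39 and 0.51 under 3 other scalings and the length and GC correction. Among all genes, the 2256 with the longest transcripts had medians of -0.44 for TGF-b1 minus DMSO and 0.41 for TGF-b1+DP minus TGF-b1. The length and GC correction joins both properties, so the part of transcript length alone in the assembly factors' medians for those comparisons was not tested. RRS1, a factor of large-subunit assembly, was highest against DMSO (0.72), with 22.7 FPKM with TGF-b1+DP, 19.6 with TGF-b1 and 13.4 with DMSO. UTP20, a scaffold of the small-subunit processome, had 8.38 FPKM with TGF-b1+DP, 3.10 with TGF-b1 and 5.09 with DMSO. NOP10, a small core protein of the pseudouridylation particles, had 171 FPKM with TGF-b1+DP, 294 with TGF-b1 and 145 with DMSO. NOP14 had 27.9 FPKM with TGF-b1+DP, 13.4 with TGF-b1 and 23.7 with DMSO. FBL, the rRNA methyltransferase fibrillarin, had 161 FPKM with TGF-b1+DP, 243 with TGF-b1 and 186 with DMSO.

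The 11 RNA polymerase I genes, which serve transcription of ribosomal RNA, had medians of -0.13 for TGF-b1 minus DMSO, 0.21 for TGF-b1+DP minus TGF-b1 and 0.077 for TGF-b1+DP minus DMSO, the first of which turned to 0.045 with median-of-ratios scaling. In TGF-b1 minus DMSO 2 were lower by at least 1, and in TGF-b1+DP minus TGF-b1 1 was higher. UBTF, the upstream binding factor, had 32.5 FPKM with TGF-b1+DP, 16.8 with TGF-b1 and 46.7 with DMSO (-1.42 for TGF-b1 minus DMSO). POLR1A, the largest polymerase subunit, had 12.99 FPKM with TGF-b1+DP, 4.86 with TGF-b1 and 11.9 with DMSO. The small subunit POLR1D had 72.4 FPKM with TGF-b1+DP, 146 with TGF-b1 and 81.2 with DMSO, and POLR1C had 34.0 FPKM with TGF-b1+DP, 31.7 with TGF-b1 and 25.3 with DMSO. The 7 dedicated chaperones of single ribosomal proteins had medians of -0.032 for TGF-b1 minus DMSO, -0.018 for TGF-b1+DP minus TGF-b1 and 0.14 for TGF-b1+DP minus DMSO, with none past 1 in either direction. The first of these turned to 0.14 with median-of-ratios scaling, and the second to 0.29 at equal summed FPKM. BCCIP, which escorts RPL23, had 37.1 FPKM with TGF-b1+DP, 49.2 with TGF-b1 and 27.0 with DMSO. GRWD1, which escorts RPL3, had 18.9 FPKM with TGF-b1+DP, 13.3 with TGF-b1 and 13.6 with DMSO. AAMP had 110 FPKM with TGF-b1+DP, 82.3 with TGF-b1 and 96.6 with DMSO, and PDCD2L had 9.67 FPKM with TGF-b1+DP, 17.2 with TGF-b1 and 11.4 with DMSO.

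Of 17 genes of the mTORC1 pathway and TOP regulation, 16 were compared, with medians of -0.35 for TGF-b1 minus DMSO, 0.20 for TGF-b1+DP minus TGF-b1 and 0.0096 for TGF-b1+DP minus DMSO. In TGF-b1 minus DMSO 1 was higher and 2 lower by at least 1, and in TGF-b1+DP minus TGF-b1 3 were higher and 1 lower. For TGF-b1 minus DMSO 5 were above 0 and 11 below (68.8%, against 57.2% of all genes). The 2256 genes with the longest transcripts had a median of -0.44 there. The part of transcript length alone, apart from GC content, in this list was not tested. MYC, a transcriptional driver of ribosome production, had 31.8 FPKM with TGF-b1+DP, 36.5 with TGF-b1 and 17.1 with DMSO, a difference from DMSO of 0.86 with TGF-b1+DP and 1.05 with TGF-b1. RPTOR, the mTORC1 scaffold raptor, had 12.1 FPKM with TGF-b1+DP, 4.10 with TGF-b1 and 11.9 with DMSO, and RHEB, the GTPase that activates mTORC1, had 86.2 FPKM with TGF-b1+DP, 179 with TGF-b1 and 106 with DMSO. MLST8 was the lowest for TGF-b1+DP minus DMSO (-0.66), with 13.5 FPKM with TGF-b1+DP, 16.1 with TGF-b1 and 22.0 with DMSO. These 4 genes stood in different orders across the libraries. The 12 noncoding snoRNA host genes, several of which also carry TOP tracts, were not analysed here.

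**Figure D5:**
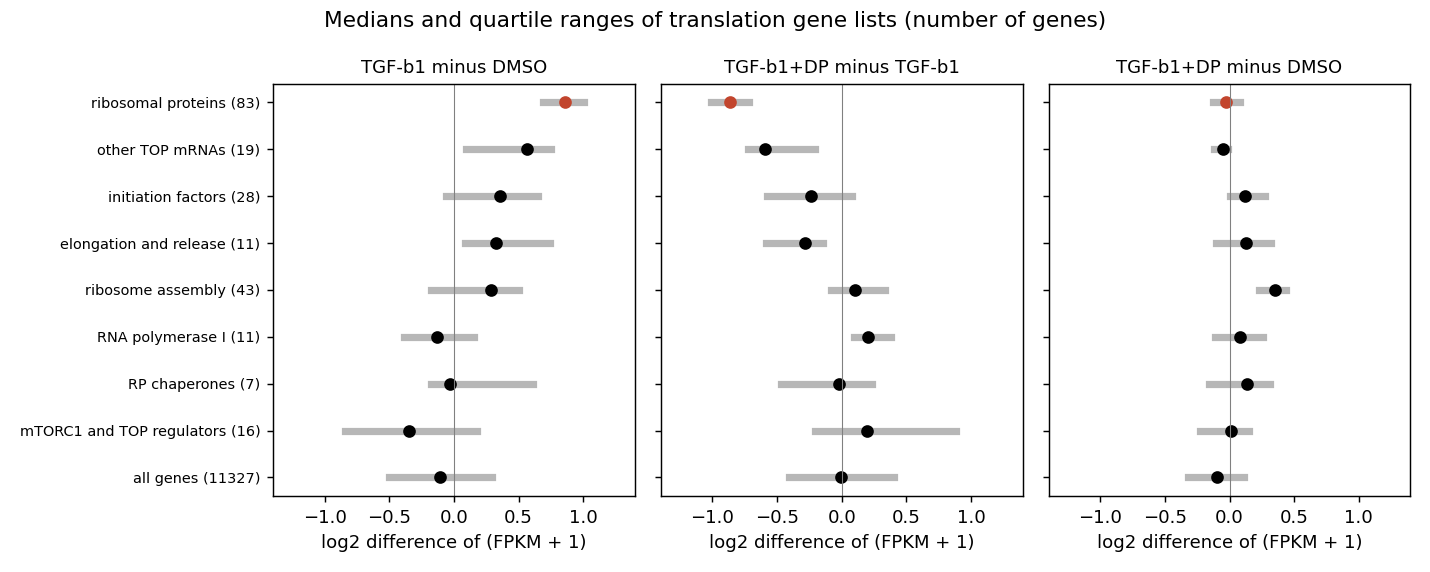
Median (dot) and quartile range (bar) of the log2 differences in the 3 comparisons for ribosomal proteins, 7 other translation lists and all genes, with the number of genes in brackets. The ribosomal proteins have the highest median for TGF-b1 minus DMSO (0.86) and the lowest for TGF-b1+DP minus TGF-b1 (-0.86), and assembly factors the highest for TGF-b1+DP minus DMSO (0.35). At equal summed FPKM the first median of the assembly factors, the second medians of the initiation factors, elongation factors, chaperones and all genes, and the third median of the ribosomal proteins change sign.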

How the data were processed

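The authors deposited 1 table of FPKM values, 1 column per library, given to 2 decimals, per the file headers. The submitters' processing notes name the build GRCh38.p13 and the tools BWA, Bowtie, Cufflinks and Cuffdiff. Their roles, versions, strand setting and gene models were not given in the sources used here. Since the unit is scaled to a library's own mapped fragments, a rise of abundant transcripts lowers the values of others.

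Of 17596 lines, 20 held no gene values, which left 17576 genes. A pseudocount of 1 FPKM was added, which makes differences of genes near 0 too small, and 11327 genes averaging 1 FPKM or more were compared. Transcript length and GC content came from the principal transcript in GENCODE release 29, which 98.6% of genes had. Among transcripts of equal rank the longest was taken, which can be longer than the form a cell makes most. Genes share reads where exons overlap by at least 100 bp or where at least 200 bases match at 97% identity. Promoters and starts came from RefSeq (GRCh38.p14), and coordinates from it are in that build. In short genes FPKM values stepped by 0.052 (TGF-b1+DP), 0.051 (TGF-b1) and 0.052 (DMSO) per kilobase, which would be 19.2, 19.6 and 19.2 M fragments if a step were 1 fragment. The stepping was partial (71.7%, 71.7% and 75.0% of values within 0.2 of a whole step), so reads were not recovered and depth is unknown.

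Other settings each changed 1 choice, apart from a correction chosen later that joined length, GC content and abundance and used genes outside the list: pseudocount, filter, scaling to equal summed FPKM, by median of ratios or by upper quartile, joint correction for length and GC content in 10 by 5 bins, and leaving out genes. With 1 library per group no test was made. The computation was tested on simulated data. The members and lists were chosen with earlier results of these data known. The named members are those with the 5 highest means, the 5 highest and 5 lowest differences in each comparison, all paralogue copies, the stalk and 5S proteins, and each list's extremes, and some genes that this rule names are left out of the text and of 2 plots. RPS3, RPS26, RPS10, RPL17, RPL14, RPL21, RPL28, RPL37, RPL13, RPL7A and the threshold neighbours follow from these lists or were named after their values were seen, as was the split by subunit. Python 3.11.15, numpy 2.4.6, pandas 2.3.3, matplotlib 3.10.9, bedtools 2.31.1 and minimap2 2.31 were used.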

Additional observations from a re-analysis of the deposited data

How the results depend on the processing

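Values below are for TGF-b1 minus DMSO, TGF-b1+DP minus TGF-b1 and TGF-b1+DP minus DMSO, in that order where 3 are given. The pseudocount of 0.1 FPKM, no filter, a minimum of 5 FPKM, upper-quartile scaling and leaving out paralogue copies moved no median of the ribosomal protein genes by over 0.1 and no count by over 1.5 times. At equal summed FPKM the first 2 medians were 0.56 and -0.51, with 1 member higher in the first and 1 lower in the second by at least 1, against 0.918% and 1.1% of all genes, shares near that of the members. Under median-of-ratios scaling the first median was 1.04 with 46 members higher by at least 1, against 5.16% of all genes, and the third 0.14. The length and GC correction gave medians of 0.41, -0.29 and 0.10, with 8 higher and 6 lower, against 2.23% and 2.14% of all genes. Another 2 corrections were chosen after seeing the data. The same correction with the longest transcript gave 0.53, -0.42 and 0.11 with 11 higher and 9 lower, against 2.48% and 2.57% of all genes. One that added abundance, from genes outside the list, gave 0.40, -0.22 and 0.085. It had 3 higher and 5 lower, against 2.09% and 2.13% of all genes, and 3 members are few to set beside such a share. Without members near-identical to a pseudogene, also chosen after seeing the data, 15 of 45 were higher and 15 lower, fewer members being counted. The shares of all genes were then 2.25% and 4.21%. Without genes that share reads the members held 8.86% of the summed FPKM with TGF-b1+DP, 12.4% with TGF-b1 and 8.81% with DMSO, fewer genes being summed. The causes of the moves by scaling and correction were not tested. No median of the first or second comparison changed sign under any of the 12 other settings.

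With 1 library per group the spread between cultures is unknown, and no setting can stand in for it. No paired analysis was possible because each group held 1 library.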
